A study of Homo sapiens with 20 samples.

Results

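The arrays covered 5 stages and treatments of HepaRG differentiation. Between their highest and their lowest condition, 96 probes named by a transcript model differed by 2 or more on the log2 scale. They carry an Ensembl transcript name (ENST, 83 probes) or a predicted RefSeq RNA accession (XR_, 13 probes) as their name on the array. They were chosen by 3 criteria: a name beginning with ENST or XR_, a condition in which all of the 4 arrays rose well above background, and condition means that spanned 2 or more on the log2 scale. The array holds 42405 non-control probes, of which 3279 have such a name, and 1450 of these met the background criterion. The 96 probes were selected on their levels in all 5 conditions, so their levels and differences are given as a description, and counts of calls from a fit over all probes are given beside the share of all probes called, with nothing read from them. They bear 95 names, since ENST00000412305 is measured by 2 of them.

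An ENST name refers to a transcript model of the Ensembl catalogue, which may be a coding messenger, an alternative isoform, a transcribed pseudogene or a non-coding RNA. An XR_ accession is given by RefSeq to a transcript predicted by computation and held to be non-coding, and such models are often revised or withdrawn in later releases. The RefSeq gene table used here gave a symbol for 24825 of the 25825 probes with an NM_ or NR_ accession. It gave none for the ENST or XR_ names. An Ensembl name is not a RefSeq accession, so such a table could not pair it. Whether these transcripts belong to genes with a symbol, or several of them to the same gene, was not examined. Different names are therefore not to be counted as different genes. The transcripts are therefore called by their array names, and no function, position or sequence is given for them.

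HepaRG cells are a line of human hepatoma progenitors that, once confluent, differentiate into a mixed culture of hepatocyte-like and biliary-like cells. Four-array groups were available of progenitors 4 days after seeding (D4), of committed cells at day 15 (D15), of day 30 cultures kept without DMSO (D30 − DMSO) or given 2% DMSO from day 15 (D30 + DMSO), and of D30 + DMSO cultures kept for 4 more days without DMSO (D34 ± DMSO). All 5 conditions share a medium with 10% serum, insulin and 50 µM hydrocortisone, and the 4 arrays of a condition came from independent experiments. No culture of day 34 with DMSO, or never given it, is among the samples, so DMSO removal and the additional 4 days cannot be told apart. In these bulk samples, fewer cells of a type and less RNA per cell cannot be told apart either.

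Levels are log2 of the processed signal after each array was scaled to a common 75th percentile, which lies at 9.14 on this scale, and signals under 1 were set to 1, so that 0 is the lowest value possible. All 8 hepatocyte markers examined were well above background on 20 arrays, as were the biliary markers KRT7, KRT19 and SOX9, while EPCAM was well above background on 0 arrays. Of 7 markers of blood, endothelial and other cells, PTPRC and CD68 were well above background on 20 arrays and the other 5 on 3 to 13, and their part in the results was not tested. Between 61.1% and 74.2% of the spots of an array were well above background, and arrays of the same condition correlated at 0.955 to 0.992. The number of arrays, 4 a condition, limits the precision. The arrays lay on 4 slides scanned in 2 sessions, and slides 3 and 4 each held 7 arrays of all 5 conditions. Slide 4 was scanned in a session of its own. The D30 + DMSO arrays lay on slides 3 and 4 only, and those of D30 − DMSO on slides 1, 2, 3 and 4. The slides were thus not balanced between these 2 conditions. Within slide 3 and within slide 4, 95 of the 96 probes were higher in their highest than in their lowest condition, with a median difference of 2.61 and 2.57, against 2.62 over all 20 arrays. The choice of the probes and of their extremes used these same arrays, so the direction within a slide is largely fixed by the choice and is no sign of stability.

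The share of changing probes was set against that of probes with a curated RefSeq name. Of the 1450 ENST and XR_ probes that met the background criterion, 6.62% had a range of 2 or more, against 10.8% of 17771 NM_ probes, 8.96% of 859 NR_ probes and 9.14% of all 26538. These shares are a description and were not tested. The 96 probes were dimmer than the 26538 that met the background criterion, with a median level of 5.36 against 7.76, and varied more between replicates, with a median within-condition SD of 0.461 against 0.299. Of the NR_ probes with a range of 2 or more, 29.87% were well above background on all 20 arrays. It was 56.26% of such NM_ probes and 51.5% of all such probes. A condition in which no array was well above background occurred in 29.87%, 18.3% and 19.95% of these, in the same order. The shares were not compared by a test. Of the 96 probes, 30 (31.25%) were well above background on all 20 arrays, and 25 (26.04%) had a condition in which no array was. For the latter a fold change is a lower bound, given below as "at least" and computed against the lowest signal that counted as well above background on each dim array, or the probe's own signal where that was higher. The number of probes chosen depended on how dim signals were treated. It was 17 after a normexp background correction with an offset of 50, which draws dim values together, and 74 with signals under 10 set to 10.

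The range, highest minus lowest mean of the 5 conditions, had a median of 2.62 and reached 7.43, with 46 probes at 3 or more and 20 at 4 or more. The probes nearest to the threshold were ENST00000370964 (range 2.03) and ENST00000409658 (2.01) inside it, and ENST00000392628 (1.996) and XR_019377 (1.99) outside it. For 25 probes the range fell under 2 when some single array was left out, and in 6 of these cases the array was D4 replicate 2.

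Most of the 96 profiles had their extremes at D4 and at D30 + DMSO. The highest mean was at D30 + DMSO for 39 probes, at D4 for 26, at D34 ± DMSO for 19, at D30 − DMSO for 7 and at D15 for 5. The lowest mean was at D4 for 53 probes, at D30 + DMSO for 34, at D30 − DMSO for 5, at D15 for 3 and at D34 ± DMSO for 1. In 58 probes D4 and D30 + DMSO were the 2 extremes, 36 of them highest with DMSO and 22 highest in progenitors. ENST00000367072 is counted as lowest at D30 + DMSO although it stood at 0 there and at D34 ± DMSO alike. D15 and D30 − DMSO both lay between D4 and D30 + DMSO in 65 probes. The plot of all 96 probes by array shows these blocks.

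**Figure D1:**
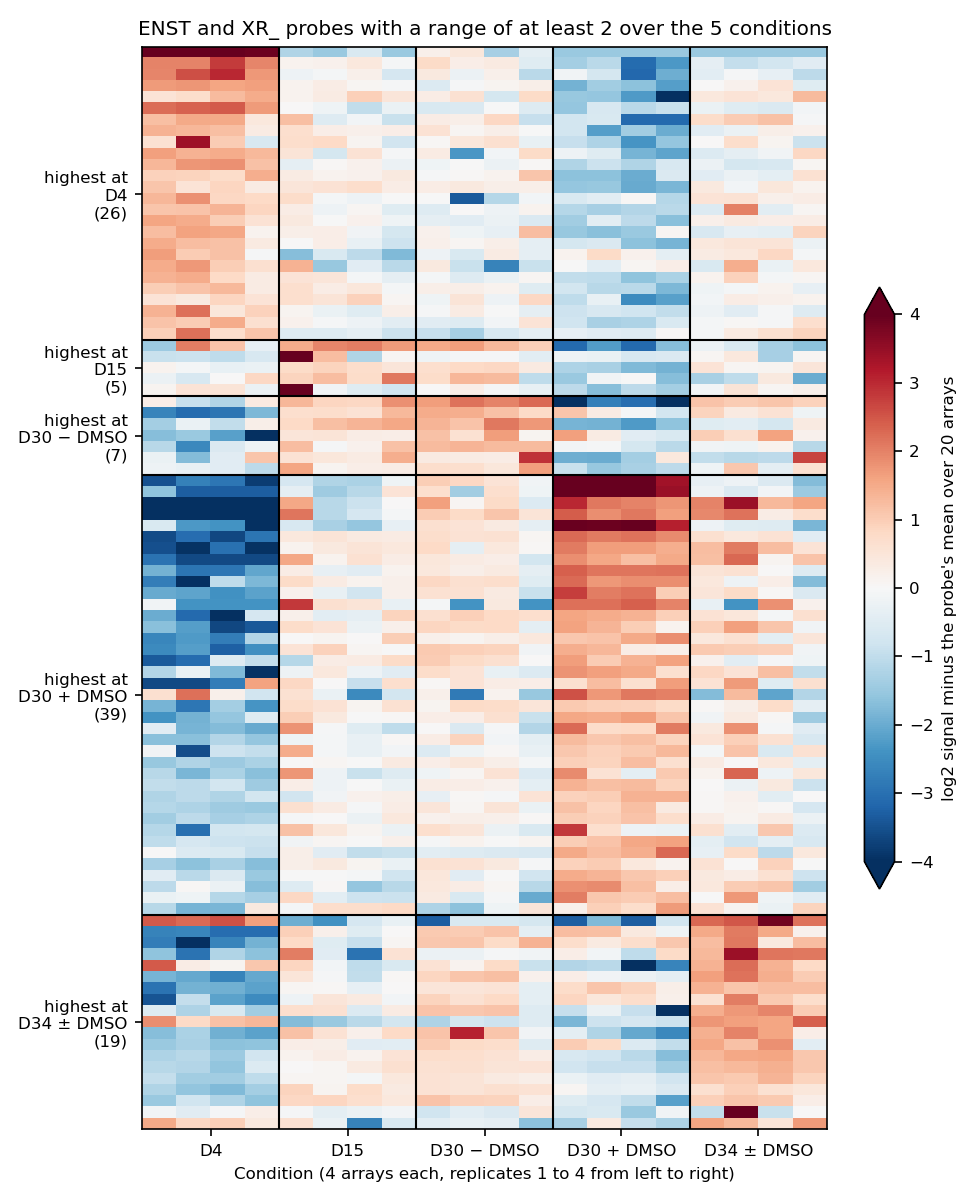
Each row is 1 of the 96 ENST and XR_ probes and each column 1 array, with the conditions in the order of the x axis and replicates 1 to 4 from left to right. Colour gives the log2 signal minus the probe's mean over the 20 arrays, drawn from −4 to 4. Rows are grouped by the condition of the highest mean (26, 5, 7, 39 and 19 probes) and sorted by range, and the 39 probes highest at D30 + DMSO are mostly lowest at D4.

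Detection was counted by condition. The number of the 96 probes well above background on all 4 arrays was 48 at D4, 62 at D15, 63 at D30 − DMSO, 66 at D30 + DMSO and 73 at D34 ± DMSO. The number with no array well above background was 12 at D4, 7 at D15, 7 at D30 − DMSO, 12 at D30 + DMSO and 3 at D34 ± DMSO. For 23 probes a single condition had all 4 arrays well above background, namely D30 + DMSO for 9, D4 for 6, D34 ± DMSO for 6, D15 for 1 and D30 − DMSO for 1. In 17 probes D4 alone had arrays that were not well above background. The choice required a condition with all 4 arrays well above background, so detection in a single condition partly follows from the choice. The share of all probes detected in each condition is not given, and nothing is read from these counts.

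The largest ranges belonged to transcripts that were highest with DMSO. ENST00000378281 (probe A_33_P3208966) had log2 levels of 4.06, 4.81, 4.63 and 3.73 at D4, of 6.85, 6.31, 6.27 and 7.35 at D15, and of 8.52, 8.37, 8.09 and 7.40 at D30 − DMSO. With DMSO the 4 arrays stood at 11.94, 11.83, 12.27 and 10.90, and after its removal at 7.19, 7.32, 6.95 and 5.79. Every array with DMSO was above every array of the other 4 conditions, and D4 and D15 did not overlap. The mean was 12.5-fold higher at D30 + DMSO (11.73 ± 0.59, SD, n = 4) than at D30 − DMSO (8.09 ± 0.50) and 172-fold higher than at D4, where 2 of 4 arrays were well above background. At D34 ± DMSO (6.81 ± 0.70) it was 30.3-fold below D30 + DMSO and close to D15 (6.69 ± 0.51).

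ENST00000301171 (A_33_P3231486) was measured in all arrays of a single condition. Its levels were 7.69, 7.46, 7.68 and 6.74 at D30 + DMSO, against 3.98, 1.92, 3.95 and 3.11 at D30 − DMSO and 1.84 to 3.19 at D34 ± DMSO. At D15 they were 2.92, 1.88, 2.18 and 3.84, and at D4 a single array stood above 0, at 1.69. No array without DMSO came within the range of those with it, and of those 16 arrays 1, at D30 − DMSO, was well above background. The signal was 17.8-fold higher at D30 + DMSO than at D30 − DMSO, at least 24.7-fold higher than at D4 and at least 21.9-fold higher than at D34 ± DMSO.

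ENST00000359667 (A_33_P3231493) had a like profile at a wider spread in progenitors. It stood at 10.90, 10.85, 11.05 and 10.03 at D30 + DMSO and at 7.58, 7.49, 7.30 and 6.56 at D30 − DMSO. At D34 ± DMSO the arrays read 6.74, 6.45, 6.41 and 5.09, and at D4 6.31, 4.63, 4.53 and 2.77. The arrays with DMSO lay apart from all others, 11.1-fold above D30 − DMSO and 23.2-fold above D34 ± DMSO by their means, while D4 overlapped D15 and D34 ± DMSO. For this probe and for ENST00000378281, replicate 4, hybridised on slide 4 in every condition, was the lowest array of D4, D30 − DMSO, D30 + DMSO and D34 ± DMSO and the highest of D15. The part of the slide in these values was not tested.

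**Figure D2:**
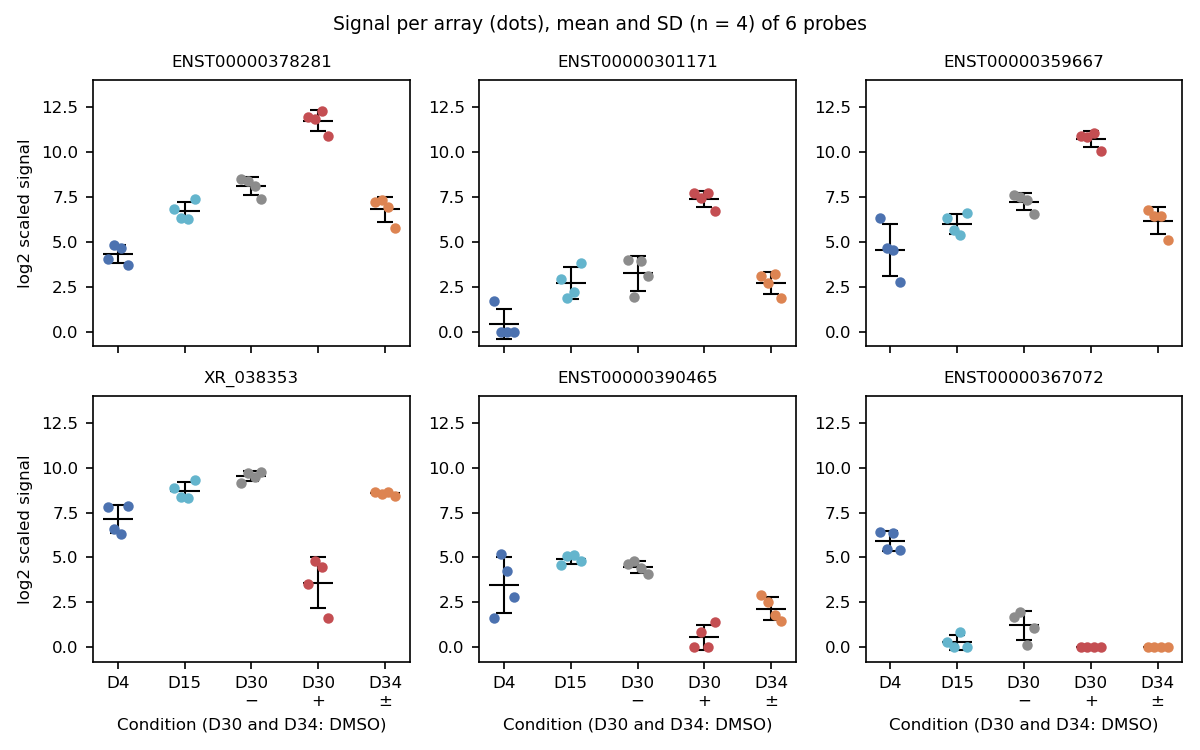
Log2 scaled signal of 6 probes (y axis) in each of the 5 conditions (x axis), with 1 dot per array and the mean and SD of 4 arrays in black. The top row shows probes highest at D30 + DMSO (means 11.73, 7.39 and 10.71), and the bottom row XR_038353 and ENST00000390465, lowest there (3.60 and 0.57), and ENST00000367072, well above background only at D4.

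XR_038353 (A_33_P3257574) fell with DMSO and had the widest range of the XR_ probes. Its levels were 9.17, 9.68, 9.51 and 9.78 at D30 − DMSO and 3.51, 4.78, 4.45 and 1.65 at D30 + DMSO, where 2 of 4 arrays were well above background. The other arrays read 7.79, 6.59, 6.31 and 7.86 at D4, 8.85, 8.38, 8.33 and 9.33 at D15, and 8.65, 8.52, 8.62 and 8.44 at D34 ± DMSO. The arrays with DMSO were below all 16 others, and those after its removal were again among the D15 values but below all 4 at D30 − DMSO. The mean was 61.4-fold lower at D30 + DMSO (3.60 ± 1.41, SD, n = 4) than at D30 − DMSO (9.54 ± 0.27) and 31.2-fold lower than at D34 ± DMSO (8.56 ± 0.10).

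ENST00000367072 (A_33_P3312119) was measured in progenitors alone. Its 4 arrays at D4 read 6.43, 5.48, 6.36 and 5.39, all well above background. In the other 4 conditions no array was, with 0.28, 0, 0.86 and 0 at D15, 1.69, 1.95, 0.15 and 1.08 at D30 − DMSO, and 0 on all arrays of D30 + DMSO and D34 ± DMSO. The signal at D4 was at least 9.41-fold above D15. Its range of 5.91 came from values near the floor, and was 2.59 with signals under 10 set to 10 and 0.70 after the normexp correction.

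The step from D4 to D15 answers what differed between progenitors and committed cells before any DMSO was given. The 96 probes were read in a limma fit over all 26538 probes, and a change was called where it exceeded 2-fold with an adjusted p (Benjamini-Hochberg) below 0.005. Among all probes 5.54% were called higher and 3.64% lower at D15, and among the 96 it was 35 and 14. Since the choice used these arrays, nothing is read from the counts. The median difference, D15 minus D4, was 1.39 over the 96 probes and 0.03 over all probes.

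Several of the transcripts that rose were not measurable in progenitors. ENST00000393750 stood at 0 on all 4 arrays of D4, and at 6.23, 3.58, 3.82 and 4.69 at D15, of which 2 were well above background. It then read 6.32, 4.77, 5.43 and 4.12 at D30 − DMSO, 7.69, 6.80, 6.65 and 6.44 at D30 + DMSO, and 6.65, 8.10, 5.98 and 6.24 at D34 ± DMSO. Every later array was above D4, at least 17.5-fold by the mean at D30 + DMSO, and the arrays with DMSO and after its removal overlapped. ENST00000428155 was likewise at 0 on all arrays of D4 and averaged 4.28 ± 1.44 at D15 and 6.22 ± 0.33 at D30 + DMSO (SD, n = 4), at least 11.0-fold above D4. ENST00000391578 and ENST00000411935, with no array of D4 well above background, rose at D15 by at least 2.78-fold and at least 2.97-fold.

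ENST00000397935 (A_24_P49267) was well above background on all 20 arrays. It read 6.38, 6.91, 6.32 and 7.04 at D4 and 10.39, 10.48, 10.30 and 10.27 at D15, a 13.0-fold rise of the mean. At D30 − DMSO the arrays stood at 10.67, 10.53, 10.57 and 10.04, at D30 + DMSO at 12.22, 12.05, 12.11 and 11.85, and at D34 ± DMSO at 10.60, 10.38, 10.52 and 9.50. D15, D30 − DMSO and D34 ± DMSO overlapped, D4 lay below them all and D30 + DMSO above them all. ENST00000409310 rose 8.06-fold to D15 (from 6.71 ± 0.24 to 9.72 ± 0.60) and was between 9.17 and 11.63 on all arrays after that, with and without DMSO. ENST00000434154 rose 10.8-fold, from 2.80 ± 0.57 with 1 of 4 arrays well above background to 6.23 ± 0.32, and averaged 5.57 ± 0.77 with DMSO. ENST00000405718 rose at least 2.58-fold and then differed little between D30 − DMSO, D30 + DMSO and D34 ± DMSO (5.35, 4.97 and 5.51).

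Of the 14 transcripts called lower at D15, ENST00000367072 and ENST00000358739 had no array well above background there, and fell at least 9.41-fold and at least 6.68-fold. ENST00000335616 read 7.68, 7.69, 8.50 and 7.65 at D4 and 5.83, 5.86, 6.12 and 5.64 at D15, 4.05-fold lower, and fell again with DMSO, to 4.33, 4.60, 2.61 and 3.39. Its arrays at D30 − DMSO, 6.45, 5.95, 6.04 and 5.20, overlapped those at D15 and lay above those with DMSO. ENST00000391567 went down in the same 2 steps, with means of 9.10 ± 0.08 at D4, 7.55 ± 0.14 at D15, 7.38 ± 0.34 at D30 − DMSO and 5.66 ± 0.35 at D30 + DMSO, and stood at 7.50 ± 0.42 at D34 ± DMSO. ENST00000404580 fell 5.65-fold, from 6.44 ± 0.58 to 3.94 ± 0.37, where D15 had 2 of 4 arrays well above background. None of the 14 had its highest mean at D30 + DMSO, and 11 had their lowest mean there. For the 35 called higher at D15 these counts were 21 and 1, and for all 96 probes 39 and 34. The share among all probes called was not counted. Since the choice used these arrays, nothing is read from these counts.

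Between D15 and D30 − DMSO, 2 stages without DMSO, none of the 96 probes was called by limma in either direction, where 0.00377% of all probes were called higher and 0% lower. At an unadjusted p under 0.05, limma had 9 of the 96 and 779 of all 26538 probes, and the methods' t-test called 0 of the 96. The median absolute difference over the 96 probes was 0.294, and 8 differed by more than 1. The greatest was 2.04, in XR_040113, with 5.23, 3.05, 2.90 and 2.11 at D15 and 2.32, 0, 2.80 and 0 at D30 − DMSO, where no array was well above background.

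The comparison of D30 − DMSO with D30 + DMSO asks what DMSO altered in cultures of the same age. Of the 96 probes 12 were called higher and 17 lower with DMSO, against 1.66% and 4.11% of all probes, and again the choice used these arrays. With the slide as a block the 12 became 17 and the 17 became 21, while over all probes 440 became 654 and 1091 became 1233. The median difference, D30 + DMSO minus D30 − DMSO, was −0.15 over the 96 and 0.04 over all probes.

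Among the 12 called higher, ENST00000301171, ENST00000378281 and ENST00000359667, given above, stood out by their size, and the other 9 were 1.11 to 2.16 higher on the log2 scale. XR_017598 (A_33_P3232214) read 7.45, 7.27, 7.39 and 6.67 at D30 − DMSO and 9.42, 9.17, 9.18 and 9.21 at D30 + DMSO, 4.14-fold higher by the means. It had been at 5.15, 4.10, 4.15 and 4.94 at D4, and was at 7.56, 7.64, 7.03 and 6.52 at D34 ± DMSO. The arrays with DMSO lay above all others, and D34 ± DMSO lay across D15 and D30 − DMSO. ENST00000380859 had means of 5.98 at D30 − DMSO, 8.14 at D30 + DMSO and 6.48 at D34 ± DMSO, and was not called between D4 and D15. ENST00000411935 rose 2.81-fold with DMSO (4.19 ± 0.50, 2 of 4 arrays well above background, to 5.68 ± 0.26).

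Among the 17 called lower, XR_038353 is given above. ENST00000390465 (A_33_P3214393) read 4.62, 4.78, 4.41 and 4.06 at D30 − DMSO and 0, 0.87, 0 and 1.41 with DMSO, where no array was well above background, so that it fell at least 3.13-fold. After the removal of DMSO it stood at 2.89, 2.50, 1.78 and 1.47, again with no array well above background. It was thus measured at D15 and D30 − DMSO on all arrays, at D4 on 2 of 4 (1.65, 5.17, 4.26 and 2.79), and not on the 8 arrays of the last 2 conditions.

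ENST00000256969 (A_23_P2414) fell 11.1-fold with DMSO, from 7.85, 7.60, 8.57 and 8.20 to 4.63, 4.59, 4.22 and 4.88, and read 5.99, 6.07, 5.77 and 6.84 after its removal. All 4 arrays with DMSO lay below all 16 others, and those at D34 ± DMSO lay below all at D15 and D30 − DMSO and overlapped D4. ENST00000394243 fell 4.63-fold, from 9.28 ± 0.21 to 7.06 ± 0.34, and was at 8.91 ± 0.25 at D34 ± DMSO. ENST00000331145 and ENST00000288676 were 2.85 and 2.62 lower on the log2 scale, and ENST00000288676 had no array with DMSO well above background. XR_041658 fell at least 2.49-fold, from 4.34 ± 0.25 to 2.54 ± 0.65, with no array with DMSO well above background.

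The comparison of D30 + DMSO with D34 ± DMSO asks what the removal of DMSO altered. It shares the D30 + DMSO arrays with the preceding comparison, so that a high or low value there moves both, in opposite directions, and the values are set side by side without a count of reversals. Of the 96 probes 26 were called higher and 13 lower after removal, against 4.88% and 2.03% of all probes. For the 12 transcripts called higher with DMSO the median level was 6.62 at D30 − DMSO, 8.69 at D30 + DMSO and 6.33 at D34 ± DMSO. For the 17 called lower it was 7.38, 4.84 and 7.29. The plot of these 29 profiles shows the medians of both groups at D34 ± DMSO beside those at D30 − DMSO.

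**Figure D3:**
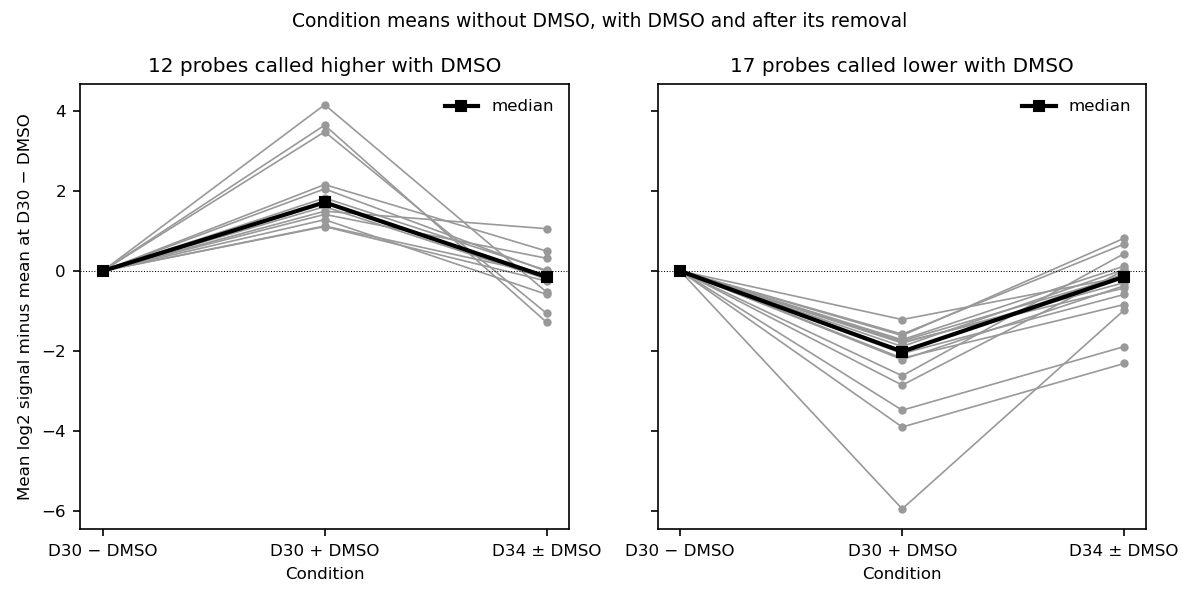
Mean log2 signal of the day 30 and day 34 conditions (x axis) minus the probe's mean at D30 − DMSO (y axis), for the 12 probes called higher (left) and the 17 called lower with DMSO (right). Grey lines are single probes and black squares their median, and the probes were chosen for their difference at D30 + DMSO. At D34 ± DMSO the 12 lay between −1.28 and 1.06 and the 17 between −2.31 and 0.82 of their level at D30 − DMSO.

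D34 ± DMSO was also compared with D30 − DMSO, which sets cultures that had been through DMSO beside younger cultures that had not. Past DMSO and the additional 4 days cannot be told apart here. ENST00000358739 and ENST00000293743 were called higher at D34 ± DMSO and ENST00000256969 lower, against 1.28% and 0.196% of all probes. These 3 were the only calls among the 96. ENST00000256969 was 3.70-fold lower at D34 ± DMSO (6.17 ± 0.47) than at D30 − DMSO (8.06 ± 0.42). The median difference, D34 ± DMSO minus D30 − DMSO, was 0.09 over the 96 and −0.03 over all probes.

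ENST00000358739 (A_33_P3393135) was measured in 2 conditions, the first and the last. It read 5.75, 5.59, 5.84 and 4.94 at D4 and 5.59, 5.80, 7.15 and 5.47 at D34 ± DMSO. On the 12 arrays of D15, D30 − DMSO and D30 + DMSO it was between 0 and 3.02, with none well above background, and so it was at least 9.06-fold higher at D34 ± DMSO than at D30 + DMSO and at least 9.46-fold higher than at D30 − DMSO. ENST00000293743 had the same form at a level measured throughout, with 9.77, 8.69, 9.06 and 9.21 at D4, 9.65, 9.52, 9.48 and 10.29 at D34 ± DMSO, and 6.08 to 7.38 on the 12 arrays between them. In ENST00000370964 the form was weaker. Its means were 4.74 ± 0.46 at D4 and 5.09 ± 0.54 at D34 ± DMSO, against 3.06 to 3.15 in the conditions between, and 1 array of D15, at 4.45, overlapped D4.

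In these 3 probes, and in no other of the 96, the lower of the D4 and D34 ± DMSO means was more than 1 above the highest of the other 3 means. In 16 of the 96 the D4 and D34 ± DMSO means were the 2 highest. The proliferation genes of a marker list ran alongside, with means over the 5 conditions, from D4 to D34 ± DMSO, of 10.53, 7.26, 7.62, 6.98 and 10.84 for CDK1, a kinase of the cell cycle, and of 7.85, 6.27, 6.41, 6.39 and 8.75 for MKI67, the Ki-67 antigen of cycling cells. TOP2A and CCNB1, the other 2 genes of the list, had means of 8.46 and 11.29 at D4 and 8.86 and 10.89 at D34 ± DMSO, against 5.03 to 5.69 and 8.26 to 8.45 in the conditions between. Their part in the 3 profiles was not tested.

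**Figure D4:**
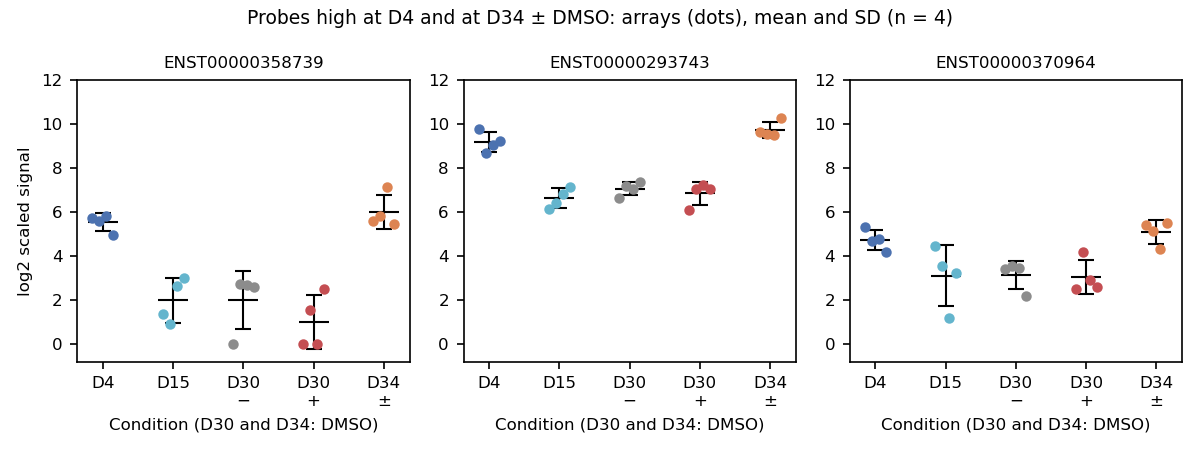
Log2 scaled signal (y axis) of the 3 probes whose D4 and D34 ± DMSO means were both more than 1 above the other 3 means, by condition (x axis), with 1 dot per array and the mean and SD of 4 arrays in black. ENST00000358739 is at 4.94 or more on the 8 arrays of D4 and D34 ± DMSO and at 3.02 or less on the other 12.

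The 13 XR_ probes had no common profile. The highest mean was at D30 + DMSO in 5, at D4 in 4, at D30 − DMSO in 2, at D15 in 1 and at D34 ± DMSO in 1. XR_015811 rose 8.23-fold from D4 (4.05 ± 0.94, 1 of 4 arrays well above background) to D15 (7.10 ± 0.43) and averaged 7.30 to 7.81 after that. XR_079360 rose 6.22-fold, from 2.71 ± 0.65 (1 of 4 arrays well above background) to 5.34 ± 0.27, and XR_041317 at least 3.20-fold, to 4.44 ± 0.13. XR_017572 fell 2.09-fold at D15 and was lowest at D30 + DMSO (4.48 ± 0.54), below 5.90 ± 0.06 at D34 ± DMSO.

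Some XR_ profiles rested on faint or uneven signals. XR_078849 was well above background on all 4 arrays of D34 ± DMSO alone, at 4.25, 6.39, 5.11 and 5.07, and on 1 of the other 16. It passed the call in none of the 5 comparisons. XR_040113 was well above background on the 4 arrays of D30 + DMSO, at 4.62, 4.61, 4.80 and 4.39, at least 3.36-fold above D30 − DMSO, and was not called either. XR_038224 read 8.10 on 1 array of D4 against 4.06 to 5.71 on the other 3, and its range of 2.61 became 1.84 without that array.

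In a few ENST probes 1 array alone made the range. ENST00000390615 read 3.80, 12.06, 3.91 and 4.82 at D34 ± DMSO and between 3.30 and 5.28 on the 16 other arrays, and without the array at 12.06 its range of 2.10 became 0.64. ENST00000431438 read 11.64, 6.44, 4.01 and 5.27 at D15, and its range of 2.49 became 0.89 without the first of these. ENST00000383025 read 9.50, 4.39, 4.05 and 3.78 at D15, and its range of 2.18 became 1.51. The latter 2 share the array, D15 replicate 1. None of the 3 was called in any comparison.

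For 5 of the 95 names the array holds more than 1 probe, 11 in all, of which 6 are among the 96. The 2 probes of ENST00000412305 gave parallel profiles, with means over the 5 conditions in the same order of 6.75, 8.21, 8.32, 9.04 and 8.20 in A_33_P3245480 and of 6.43, 7.73, 7.85, 8.62 and 7.80 in A_33_P3282740. Both were called higher at D15, by 1.46 and 1.29 on the log2 scale. These 2 probes are 1 transcript and not 2 results.

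The 2 probes of ENST00000335083 moved in opposite directions. The probe among the 96, A_23_P359214, read 9.83, 9.84, 9.77 and 9.12 at D30 − DMSO, 8.87, 8.52, 8.52 and 7.81 at D30 + DMSO, and 9.44, 9.53, 9.74 and 9.28 at D34 ± DMSO. The other, A_24_P135628, read 14.69, 14.52, 14.12 and 13.21 at D30 − DMSO, 15.55, 15.38, 14.99 and 14.61 at D30 + DMSO, and 14.46, 13.57, 15.00 and 13.03 at D34 ± DMSO. The first was lower with DMSO on every array than on any without it, whereas the second was higher by 1.00 on average with 1 overlapping array at D30 − DMSO and 1 at D34 ± DMSO. Its range, 1.39, was under the threshold.

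Of the other 3 names, 1 had a second measured probe. In ENST00000398177 the probe among the 96 was at 4.65 ± 0.73 at D30 − DMSO, 2.15 ± 1.60 at D30 + DMSO and 5.95 ± 0.60 at D34 ± DMSO, and the second probe at 4.36 ± 0.09, 4.81 ± 0.20 and 4.71 ± 0.64, with a range of 0.45 over the 5 conditions. For ENST00000391578 and ENST00000368586 the further probes, 1 and 2 in number, were well above background on 1 or 2 of the 20 arrays and did not meet the background criterion.

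**Figure D5:**
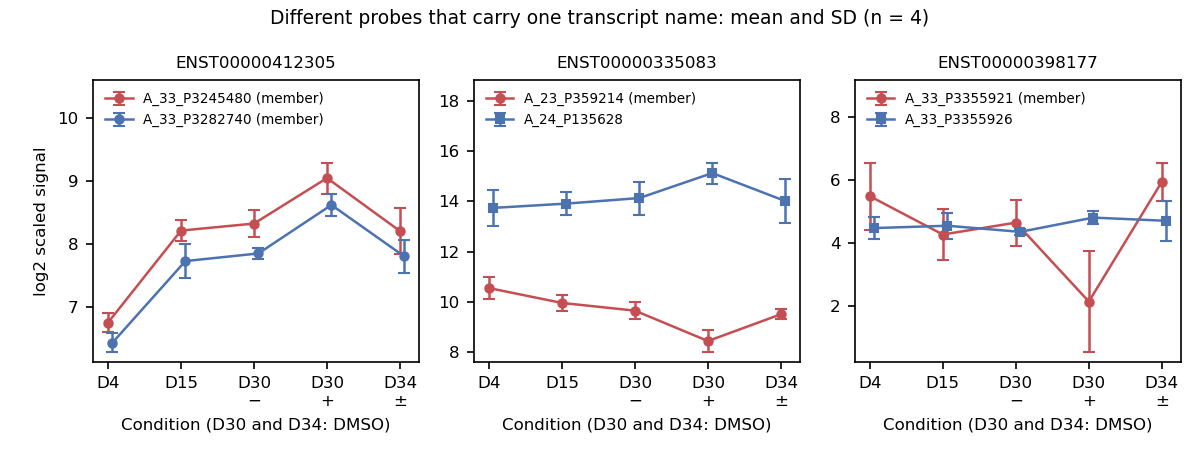
Mean log2 scaled signal and SD (n = 4 arrays) by condition of the different probes that carry the name ENST00000412305, ENST00000335083 or ENST00000398177. Circles are probes among the 96 and squares the others. The lines run in parallel in the first panel, in opposite directions at D30 + DMSO in the second, and in the third the probe outside the 96 varies by 0.45 in all.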

How the data were processed

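RNA of 20 HepaRG cultures, 4 for each condition, was hybridised to one-colour Agilent arrays, and conditions and replicates were taken from the sample labels. The authors deposited the output of Agilent Feature Extraction (version 10.7.3.1 per the labels, 10.7.1.1 per the file headers), an intensity per spot (the processed signal) from which background was subtracted and which was not scaled between arrays, with flags of 0 or 1 for spots well above background, saturated or uneven. Between 7.66% and 16.3% of the spots of an array were at or below 0. A matrix of log2 values was deposited by the authors too. For 16165 probes these matched the log2 scaled signal, apart from 1 baseline per probe and a shift per array of up to 0.113, to a median of 2.40e-07. How the baseline was set is unknown, the scale of dim probes was not checked, and column medians ran from −0.204 to 0.171.

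Spots flagged as uneven or outlying (265 to 644 an array) were left out, spots of 1 probe were averaged, and each array was scaled by its 75th percentile (407 to 766 before scaling). Signals under 1 were set to 1 and log2 was taken. The 26538 probes that had a condition with all 4 arrays well above background were fitted in limma 3.58.1 (R 4.3.3) with the 5 conditions as groups. P-values were adjusted by Benjamini-Hochberg over all of them. The script was tested on simulated data. The 96 probes, the marker lists and the tests were chosen with earlier results of these data known. Probes named in the text were to be the 4 markers given with the choice, the 12 of largest range, the 10 XR_ probes of largest range, the 3 of largest range for each condition of the highest mean, the 2 on either side of the threshold and those that share a name. ENST00000288676, ENST00000293743, ENST00000331145, ENST00000380859, ENST00000383025, ENST00000390615 and ENST00000391567 were named after their values were seen.

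Samples of 1 slide deviated together from their condition means (44 pairs, median correlation 0.365, lowest 0.108), so the slide was tried as a block. Alternatives were quantile normalization, normexp, a floor of 10, the deposited matrix, other filters and thresholds, a slide or replicate block, the methods' t-test, a fit of the 8 arrays compared, and each array left out.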

Additional observations from a re-analysis of the deposited data

Results flagged for a closer look

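In 12 of 165 sets of 4 arrays (33 named probes in 5 conditions each), 1 array lay apart from the other 3 by Dixon's criterion, which compares its gap to the nearest array with the range of the set and by which chance sets about 1 in 20 apart. Values are log2 levels. At D4 these were replicate 1 of ENST00000301171 (1.69), ENST00000391578 (0.63) and XR_040113 (2.27), each with the other 3 arrays at 0, and replicate 3 of ENST00000335616 (8.50). Where 3 arrays stand at the floor of 0, any value above it is set apart, so the 1 in 20 does not hold there. At D15 they were replicate 1 of XR_041658 (4.80) and of ENST00000409658 (3.73) and replicate 4 of ENST00000434154 (6.70). At D30 − DMSO they were replicate 1 of ENST00000358739 (0) and replicate 4 of ENST00000409310 (9.17), XR_015811 (6.40) and ENST00000370964 (2.20), and at D30 + DMSO replicate 1 of XR_017598 (9.42).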

How the results depend on the processing

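The results set against the alternatives were counts and ranges, which cannot be negative, so they had no direction that could change. The cause of each shift below was not tested except where fewer probes or arrays entered. The number of probes was 92 after quantile normalization, 96 in the deposited matrix, 74 with a floor of 10, 17 after normexp, 30 when all 20 arrays had to be well above background, 332 with no filter on dim probes, and 177 or 46 at a difference of 1.5 or 3, and it ran from 95 to 114 with 1 array left out.

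Counts of the 96 called higher and lower are given in that order. Except for the slide block, shares of all probes called are not given for these settings or with 1 array left out. A shift among the 96 can therefore not be told from a shift over all probes, and nothing is read from it. After normexp they were 14 and 6 for D4 to D15, with 9 lower for D30 − DMSO to D30 + DMSO, 8 higher for D30 + DMSO to D34 ± DMSO and 1 higher for D30 − DMSO to D34 ± DMSO. A filter of all 20 arrays well above background left 30 of the 96 probes. Among these the counts were 12 and 6, 4 and 9, 13 and 5, and 1 and 0 for these 4 comparisons. A floor of 10 gave 4 and 2 for the last. With the slide as a block 2 were lower in the last, where 95 of all probes were, against 52 without the block. The replicate block gave 38 and 14, 18 and 23, 26 and 14, and 2 and 1. Same-numbered arrays correlated over 0.1 in 28 of 40 pairs (median 0.251, lowest −0.301), and arrays of other numbers in 43 of 120 (median −0.154). All arrays of replicate 4 lay on slide 4, so number and slide overlap. The numbers were not taken to pair the samples, since not all same-numbered pairs correlated over 0.1. A pairing by number was not excluded. A fit of the 8 arrays alone gave 13 and 8 for D30 + DMSO to D34 ± DMSO and 1 and 0 for the last. The methods' t-test gave 19 and 6, 6 and 6, 6 and 4, and 0 and 0 after Benjamini-Hochberg, and 5 and 3 in the last comparison without adjustment. An adjusted p below 0.05 gave 21 and 26 for D30 − DMSO to D30 + DMSO and 5 and 4 for the last.

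With 1 array left out in turn, the counts ran from 31 to 38 and 11 to 14 for D4 to D15, stayed at 0 and 0 for D15 to D30 − DMSO, and ran from 8 to 14 and 14 to 18 for D30 − DMSO to D30 + DMSO. For D30 + DMSO to D34 ± DMSO they ran from 18 to 27 and 8 to 14, the 8 without D34 ± DMSO replicate 3, and for D30 − DMSO to D34 ± DMSO from 2 to 3 and 1 to 2, the 2 without D4 replicate 1 or D4 replicate 2. The number lowest at D15 ran from 2 to 6 (6 without D15 replicate 1), at D30 − DMSO from 3 to 7 (3 without D15 replicate 1 or D30 − DMSO replicate 4), at D34 ± DMSO from 0 to 2, at D4 from 51 to 54 and at D30 + DMSO from 32 to 36. The number highest ran from 25 to 27 at D4, 4 to 6 at D15, 6 to 10 at D30 − DMSO, 34 to 39 at D30 + DMSO and 15 to 23 at D34 ± DMSO. After normexp 10 were lowest at D30 − DMSO, 22 at D30 + DMSO and 3 at D34 ± DMSO. A floor of 10 put 5 lowest at D15, and quantile normalization and the deposited matrix each put 2 lowest at D34 ± DMSO. Signal over background limits the dim transcripts, since 25 had a condition in which no array was well above background.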
